A study of Rattus norvegicus with 6 samples.

Results

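Immediate-early genes are transcribed within minutes of a growth factor, a stress or a mechanical load, without new protein synthesis, and 32 of them were followed here in the Achilles tendon of newborn rats. They were chosen by name, as the FOS and JUN subunits of the transcription factor AP-1, the EGR, NR4A and KLF transcription factors, the DUSP phosphatases and 10 further genes of the same kind. Of the 32 genes, 31 had at least 1 probe set assigned to them alone, among 14217 genes measured in this way. Btg2 was not analysed here.

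Tendons came from rats of post-natal day 1 (3 arrays) or post-natal day 7 (3 arrays) and were measured on the 1-colour Affymetrix Rat Genome 230 2.0 oligonucleotide array. Each array carried RNA from at least 2 pooled animals, and no genotype, treatment, strain or sex is named for either age. The p-values therefore measure the spread between pools, and 3 arrays per age limit the precision of every value. Values are the deposited intensities on a linear scale, a log2 change is the mean of log2(value + 1) on day 7 less that on day 1, and a gene is read from its brightest probe set.

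Array medians lay between 20.6 and 21.1, and a bacterial trp transcript that serves as negative control read from 3.74 to 4.76. The tissue label was checked against its markers. Scx, the transcription factor of tendon cells, read between 603 and 897 on the 6 arrays, and Tnmd, the tendon membrane protein tenomodulin, between 2279 and 6822. Muscle was present too, since Acta1, skeletal muscle actin, read between 10321 and 13294. Markers of skin stood apart on day 1 replicate 1 and, less so, on day 7 replicate 1. Krt1, a keratin of the outer epidermis, read 831 on day 1 replicate 1 against 8.78 to 13.7 on the other 5 arrays. Krt5, a keratin of the basal layer, read 755.7 on day 1 replicate 1, 68.1 on day 7 replicate 1 and 11.4 to 16.2 on the other 4. The epidermal list median, as a log2 deviation from the 6-array mean, was 4.33 on the former, -0.19 on the latter and -1.08 to -0.91 on the others. In such bulk samples, fewer cells of a type and less RNA per cell cannot be told apart.

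AP-1 is a dimer of a JUN protein with a FOS, JUN or ATF partner, joined by a leucine zipper, and it binds short palindromic DNA sites. Many of its subunits are made on demand: kinases of the ERK, JNK and p38 cascades phosphorylate factors such as SRF with its partner ELK1, and these turn on FOS, EGR1 and their relatives. The response ends itself, because DUSP phosphatases inactivate the kinases and proteins such as ZFP36 speed the decay of the messages. In tendon, EGR1 is known as a load-responsive factor that acts on collagen genes.

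Of the 31 measured genes, Fos, Egr1 and Myc fell and Ier5 rose between day 1 and day 7 (limma, Benjamini-Hochberg adjusted p under 0.05 over all 31042 probe sets tested). The 3 that fell are 9.68% of the 31 genes, where 3.15% of all genes were called lower, and the 1 that rose is 3.23%, where 1.93% of all genes were called higher. Both directions together make 12.9% of the 31 genes and 5.08% of all genes. The median log2 change of the 31 genes was -0.23, against -0.01 over all 14217 genes, and 22 of the 31 (71.0%) had a change below 0, against 52.0% of all genes. At an unadjusted p under 0.05, 10 of the 31 (32.3%) were lower, against 17.0% of all genes, and 2 (6.45%) were higher, against 10.6% of all genes. All day 7 arrays lay below all day 1 arrays for 12 of the 31 genes (38.7%), where this held for 19.1% of all genes, and above them for 2 (6.45%), where it held for 14.0%. In either order the ages were separate for 14 of the 31 genes (45.2%) and for 33.1% of all genes. Whether these shares differ from those of all genes was not tested.

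**Figure D1:**
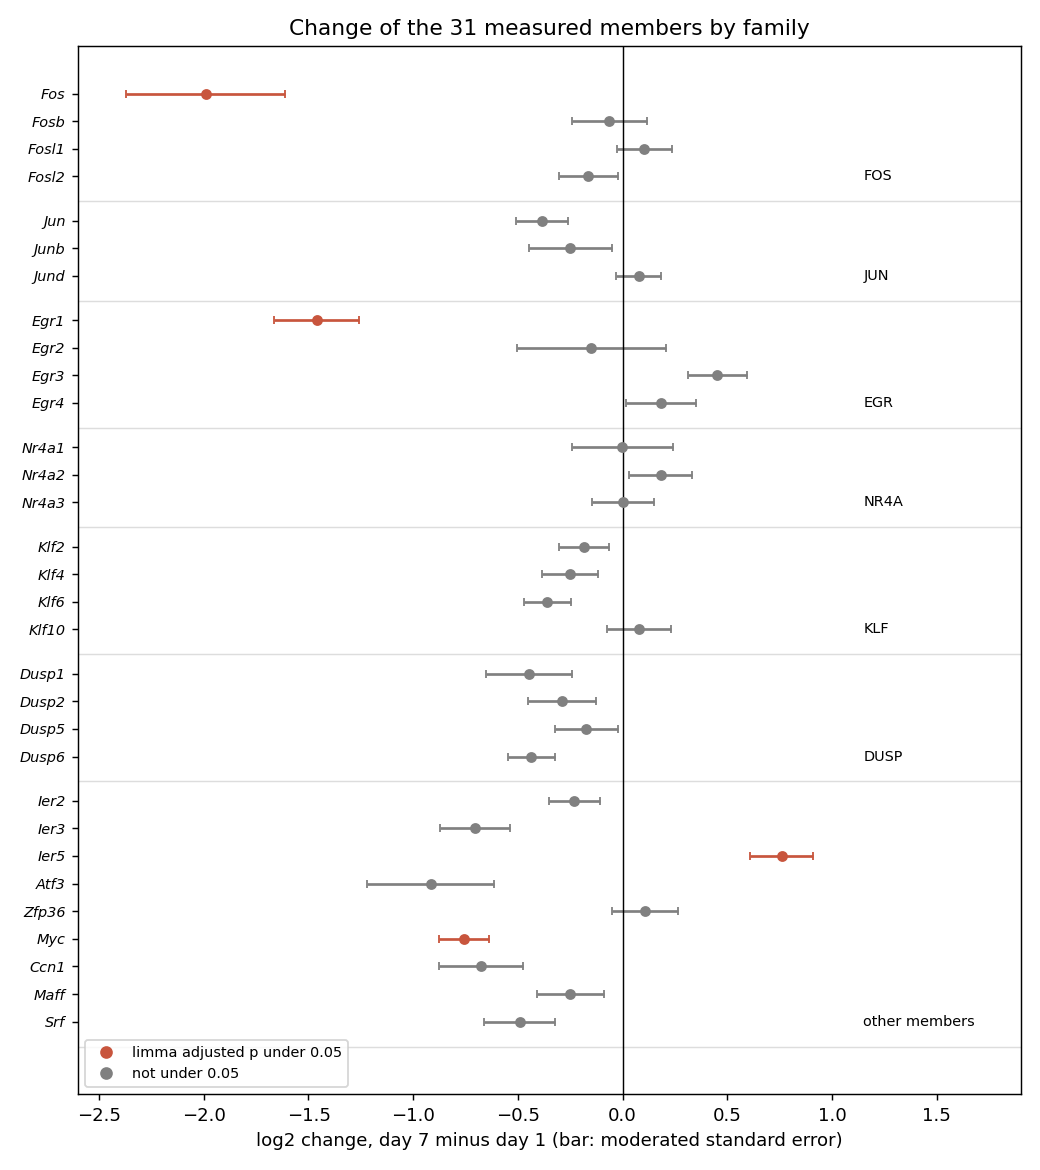
Log2 change from day 1 to day 7 for the 31 measured genes by family, with the moderated standard error as bar (3 arrays per age). Fos, Egr1 and Myc lie to the left and Ier5 to the right with a limma adjusted p under 0.05, and the grey points did not pass.

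Among the FOS subunits, which cannot pair with themselves and need a JUN partner, Fos changed and its relatives stayed low. Fos read 74.2, 118 and 235 on day 1 replicates 1, 2 and 3 and 39.3, 24.4 and 31.8 on day 7 replicates 1, 2 and 3. The ages did not overlap, and the day 1 arrays themselves spanned 3.17-fold, the widest span of the 31 genes at that age. The means were 142 ± 83.2 on day 1 and 31.8 ± 7.42 on day 7 (SD, n = 3), a log2 change of -1.99 (SE 0.38; limma adjusted p = 0.0362), or 3.97-fold lower. Among the 14217 genes this was the 16th lowest log2 change.

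Fosb, a close relative of Fos, read between 5.76 and 9.70 over the 6 arrays. These values lie near the negative control, and those of day 1 and day 7 overlapped (log2 change -0.06, SE 0.18). Fosl1, which encodes the FOS-related antigen FRA1, read between 8.43 and 11.1, and Fosl2, which encodes FRA2, between 11.1 and 16.8. Fosl1 lay under 9.51, which is 2 times the highest control reading, on 2 of the 6 arrays, and Fosl2 on 0. The ages overlapped for both. The log2 changes were 0.10 for Fosl1 (SE 0.13; limma adjusted p = 0.682) and -0.16 for Fosl2 (SE 0.14; adjusted p = 0.541).

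None of the 3 JUN subunits, which can pair with each other as well as with FOS, passed. Jun read 263, 259.7 and 324 on day 1 and 229, 209 and 207 on day 7, with no overlap between the ages. The log2 change of -0.38 (SE 0.12) did not pass (limma adjusted p = 0.125). Junb, often a brake on Jun activity, read 33.6, 33.0 and 54.9 on day 1 and 29.7, 34.8 and 34.6 on day 7. The ages overlapped, and the day 1 mean was carried by replicate 3 (log2 change -0.25, SE 0.20). Jund, the subunit that most cells make without a stimulus, read 1591 to 1691 on day 1 and 1629 to 1889 on day 7 (log2 change 0.08, SE 0.11; adjusted p = 0.716).

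**Figure D2:**
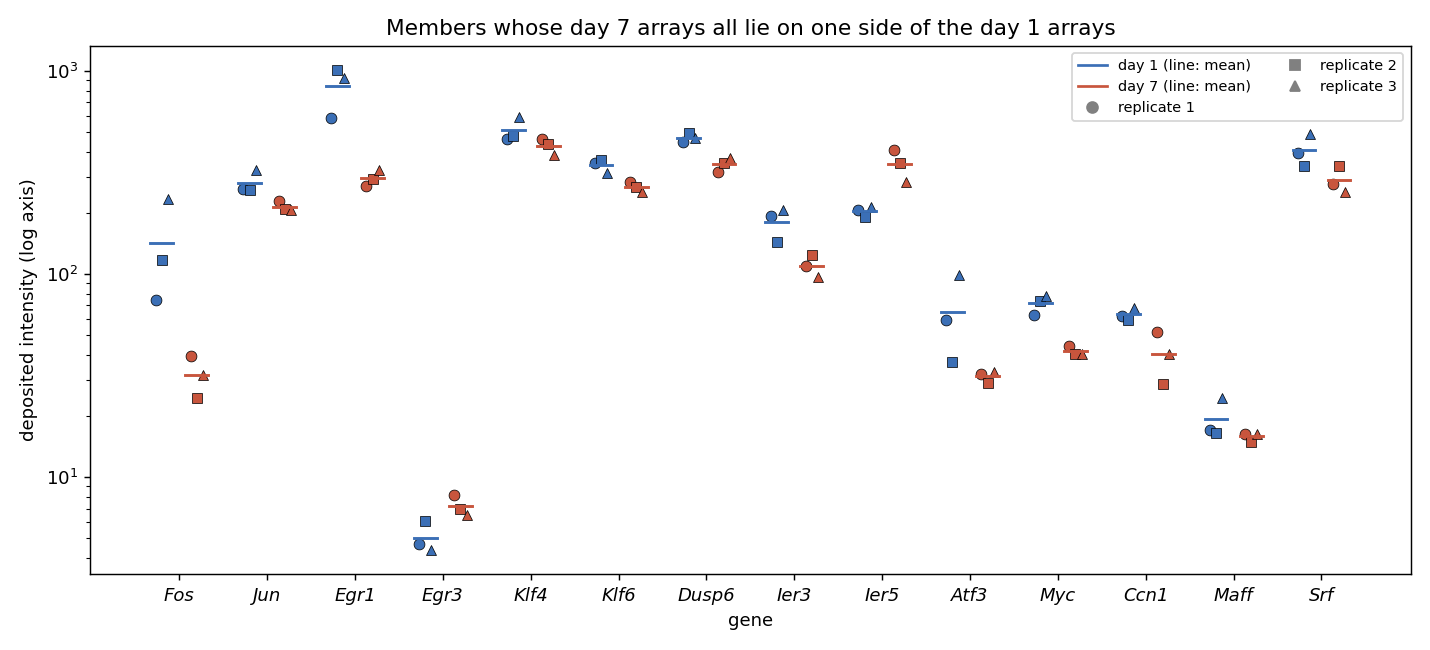
Deposited intensity (log axis) on each of the 6 arrays for the 14 genes whose day 7 arrays all lie on one side of the day 1 arrays, with lines at the means. Fos and Egr1 are the widest apart. Klf4, Maff and Egr3 are each separated by less than 1 intensity unit, and Egr3 lies near the negative control level on all arrays.

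The EGR factors are zinc finger proteins that bind a GC-rich site, and Egr1 alone among the 4 passed. Egr1 read 589, 1011 and 919 on day 1 replicates 1, 2 and 3 and 272, 294 and 326 on day 7. All 3 day 1 arrays lay well above all 3 day 7 arrays. The means were 839.6 ± 222 and 297 ± 27.0 (SD, n = 3), a log2 change of -1.46 (SE 0.20; limma adjusted p = 0.0180), or 2.75-fold lower. Egr1 had the 117th smallest p-value of the 14217 genes, the smallest of the 31.

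Egr2, which directs myelination in Schwann cells and is also made in tendon, read 66.6, 129 and 85.1 on day 1 and 76.4, 51.8 and 135 on day 7. The highest and the lowest array were both day 7 arrays, and the log2 change was -0.15 (SE 0.36; limma adjusted p = 0.843). A list of Schwann cell and nerve markers varied over the same day 7 arrays, with medians of 0.61, -0.69 and 0.96 for replicates 1, 2 and 3 as log2 deviations from the 6-array mean, lowest and highest where Egr2 was. On day 1 they were -0.60, -0.22 and -0.53. Their part in the Egr2 values was not tested. Egr3, known from muscle spindles, read at most 6.06 on day 1 and at least 6.50 on day 7. The ages did not overlap, but all 6 values were below 9.51, which is 2 times the highest control reading, so no fold is given (adjusted p = 0.117). Egr4 read between 6.93 and 11.1 with overlapping ages, and was under 9.51 on 3 of the 6 arrays.

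The DNA just before these genes is shown because the CArG box, the sequence bound by SRF, is the textbook entry point of growth factor signals to this class of genes. RefSeq promoter entries (rat assembly GRCr8) matched 22 of the 31 measured genes, and the 250 bases before each start were searched on both strands. The other 9 genes had no entry and were not searched, and neither was DNA further than 250 bases from a start. A CArG box, in its strict form with A or T at every inner position, was found in 6 of the 22 (Egr1, Egr2, Klf6, Dusp5, Zfp36 and Srf), or 27.3%, and in 1.50% of all 33469 promoter entries. The cAMP response element TGACGTCA was found in 4 of the 22 (Jund, Dusp1, Ier2 and Maff), or 18.2%, and in 1.59% of all. An EGR site, GCGNGGGCG, was found in 8 of the 22 (36.4%) and in 4.29% of all, and the AP-1 site TGANTCA in 0 of the 22 and in 6.34% of all. No match of one motif overlapped a match of another in these 22 promoters. A gene not named for the CArG box or the cAMP response element, such as Fos or Myc, had either no entry or no match. A match is a description of the letters and not of a bound factor.

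The last 120 bases before the start are printed 5′ to 3′ on the gene's strand, with CArG boxes and cAMP response elements in capitals. The first 5 hold a CArG box, Ier2 holds a cAMP response element, and Ier5 and Dusp6, given because one of their probe sets passed, hold neither. The positions are chr18:26736958-26737077 (+) for Egr1, chr20:21054442-21054561 (-) for Egr2, chr9:21923956-21924075 (+) for Srf, chr1:262543654-262543773 (+) for Dusp5, chr1:92799109-92799228 (-) for Zfp36, chr19:40399253-40399372 (+) for Ier2, chr13:69822543-69822662 (-) for Ier5 and chr7:35979484-35979603 (+) for Dusp6.
Egr1: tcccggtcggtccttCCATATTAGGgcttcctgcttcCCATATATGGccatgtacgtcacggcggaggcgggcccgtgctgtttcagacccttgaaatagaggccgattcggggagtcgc
Egr2: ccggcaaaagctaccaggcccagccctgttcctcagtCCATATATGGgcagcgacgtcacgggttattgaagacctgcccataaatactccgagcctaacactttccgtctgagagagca
Srf: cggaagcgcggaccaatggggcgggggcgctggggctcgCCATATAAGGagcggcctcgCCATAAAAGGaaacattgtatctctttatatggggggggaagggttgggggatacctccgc
Dusp5: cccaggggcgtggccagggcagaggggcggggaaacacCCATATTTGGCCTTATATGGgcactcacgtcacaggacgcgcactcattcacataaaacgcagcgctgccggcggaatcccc
Zfp36: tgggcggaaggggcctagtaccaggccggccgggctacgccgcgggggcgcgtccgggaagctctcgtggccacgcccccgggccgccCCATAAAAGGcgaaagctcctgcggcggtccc
Ier2: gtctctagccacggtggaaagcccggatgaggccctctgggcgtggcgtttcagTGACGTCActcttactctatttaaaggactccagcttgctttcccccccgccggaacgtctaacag
Ier5: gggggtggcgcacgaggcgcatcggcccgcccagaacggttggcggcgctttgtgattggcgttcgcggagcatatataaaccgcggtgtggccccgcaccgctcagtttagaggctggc
Dusp6: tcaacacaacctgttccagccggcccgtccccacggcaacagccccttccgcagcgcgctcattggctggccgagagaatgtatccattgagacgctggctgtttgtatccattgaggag

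Egr1 and Egr2 share a CArG box of the same letters at the same distance, from 83 to 74 bases before the start, and Egr1 has another from 105 to 96. Dusp5 has 2 boxes end to end, and Srf has 2 of its own. The log2 changes of the 6 genes with a box were -1.46 for Egr1, which passed, and -0.49 for Srf, -0.36 for Klf6, -0.17 for Dusp5, -0.15 for Egr2 and 0.11 for Zfp36, which did not. The 4 genes with a cAMP response element had log2 changes of -0.45 (Dusp1), -0.25 (Maff), -0.23 (Ier2) and 0.08 (Jund), none of which passed.

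The NR4A genes encode nuclear receptors that act without a known physiological ligand and are induced like Egr1 in many cells. None of the 3 passed, and the ages overlapped for all of them. Nr4a1 read 28.3, 46.9 and 49.8 on day 1 and 46.8, 31.2 and 45.3 on day 7, so that each age had 1 low and 2 high arrays (log2 change -0.00, SE 0.24; limma adjusted p = 0.998). Nr4a2 read 28.7, 38.2 and 31.7 on day 1 and 39.2, 31.7 and 41.3 on day 7, with a log2 change of 0.18 (SE 0.15). Nr4a3 lay between 12.8 and 17.1 on all arrays (log2 change 0.00, SE 0.15). No NR4A gene passed at an unadjusted p under 0.05.

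The KLF factors bind GC-rich and CACCC sites, and none of the 4 passed. Klf6, a factor made in most tissues and raised on injury, read 351, 366 and 314 on day 1 and 284, 267 and 252 on day 7. The ages did not overlap, and the log2 change was -0.36 (SE 0.11; limma adjusted p = 0.114). Klf4, one of the reprogramming factors and a regulator of epidermis and vessel wall, read 461.4, 478 and 589.9 on day 1 and 461.1, 437 and 383 on day 7. Its separation rests on a gap of less than 1 intensity unit between 2 arrays (log2 change -0.25, SE 0.14). Klf2, the flow-induced factor of endothelium, read 414, 383 and 351 on day 1 and 350.0, 360.1 and 302 on day 7 and overlapped (log2 change -0.18, SE 0.12). Klf10, first described as a gene induced early by TGF-beta, had a log2 change of 0.08 (SE 0.15), with 238 on day 1 replicate 1 and 286 to 329 on the other 5 arrays.

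The DUSP genes encode phosphatases that switch off MAP kinases. All 4 had log2 changes below 0, from -0.45 to -0.17, and none passed on its brightest probe set. Dusp6, the cytoplasmic phosphatase of ERK and a common readout of ERK activity, read 449, 495 and 466 on day 1 and 316, 352 and 374 on day 7. All day 7 arrays lay below all day 1 arrays, and the log2 change was -0.44 (SE 0.11; limma adjusted p = 0.0737). Its other 2 probe sets were separated in the same way. The one that passed read 214, 202 and 213 on day 1 and 149, 116 and 123 on day 7 (log2 change -0.70, SE 0.12; adjusted p = 0.0309), and for the other the log2 change was -0.45 with an SE of 0.14 (adjusted p = 0.106). Dusp6 passed with the mean of its probe sets (log2 change -0.53; adjusted p = 0.0307), and its brightest probe set passed with array weights (adjusted p = 0.0452).

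Dusp1, a nuclear phosphatase for p38, JNK and ERK, read 176, 137 and 242 on day 1 and 150.2, 119 and 127 on day 7. The ages overlapped through day 1 replicate 2 (log2 change -0.45, SE 0.21; limma adjusted p = 0.253). Dusp2 and Dusp5, nuclear phosphatases of ERK, read between 31.1 and 48.2 and between 18.5 and 28.6 over the 6 arrays, with overlapping ages and log2 changes of -0.29 (SE 0.16) and -0.17 (SE 0.15).

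Among the further genes, Myc fell and Ier5 rose. Myc, the transcription factor of cell growth and division, read 62.9, 73.6 and 78.2 on day 1 and 44.4, 40.4 and 40.5 on day 7. The 2 ages lay far apart relative to their spread, with means of 71.6 ± 7.85 and 41.8 ± 2.28 (SD, n = 3). The log2 change was -0.76 (SE 0.12; limma adjusted p = 0.0240), or 1.69-fold lower. Ier5, a small nuclear protein known to act on the heat shock factor HSF1, went the other way. It read 206, 190.2 and 214 on day 1 and 409.6, 353 and 283 on day 7, a log2 change of 0.76 (SE 0.15; adjusted p = 0.0395), or 1.69-fold higher. No day 7 array came down to the day 1 arrays.

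Ier3, a stress-induced regulator of cell survival, came close to the threshold. It read 193, 144 and 207 on day 1 and 109, 124 and 96.6 on day 7, with no overlap (log2 change -0.70, SE 0.17; limma adjusted p = 0.0604). It passed with array weights (adjusted p = 0.0317), with an intensity trend (0.0455), among the brighter probe sets (0.0434), without day 1 replicate 2 (0.0380) and without both arrays numbered 2 (0.0320). Atf3, a stress-induced relative of the FOS proteins, read 59.2, 37.0 and 98.5 on day 1 and 32.1, 29.1 and 32.9 on day 7. The day 7 arrays were close together and all lower, while the day 1 arrays spanned 2.67-fold (log2 change -0.92, SE 0.30; adjusted p = 0.133). Without day 1 replicate 2 the log2 change of Atf3 was -1.26 (adjusted p = 0.0383), and without day 1 replicate 3 it was -0.56.

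Ccn1, a secreted matricellular protein induced by serum and by stretch, read 62.3, 59.2 and 68.2 on day 1 and 52.0, 28.6 and 40.2 on day 7. The ages were separate, with a log2 change of -0.68 (SE 0.20; limma adjusted p = 0.106). Srf, whose protein binds the CArG box, read 395, 342 and 491 on day 1 and 277, 339 and 253 on day 7. Here day 7 replicate 2 lay just below day 1 replicate 2 (log2 change -0.49, SE 0.17; adjusted p = 0.143). Maff encodes a small MAF protein without an activation domain. It read 17.1, 16.43 and 24.5 on day 1 and 16.38, 14.9 and 16.38 on day 7 (log2 change -0.25, SE 0.16). The ages did not overlap, but the lowest day 1 value lay just above the highest day 7 value.

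Ier2 and Zfp36 did not separate the ages. Ier2 read 88.6, 115 and 101 on day 1 and 83.9, 84.3 and 89.6 on day 7, and day 7 replicate 3 lay above day 1 replicate 1 (log2 change -0.23, SE 0.12; limma adjusted p = 0.319). Zfp36, which binds AU-rich elements in messages of Fos and of cytokines and hastens their decay, read 47.9, 37.4 and 44.6 on day 1 and 37.7, 51.8 and 51.3 on day 7 (log2 change 0.11, SE 0.16). Whether the changes of any 2 of these genes differ from each other was not tested.

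Of the 31 genes, 14 had more than 1 probe set, and 24 further probe sets could be read. Besides the one of Dusp6, none of the 24 passed in limma. At an unadjusted p under 0.05 the second Dusp6 and a Klf6 probe set were also lower. A Jund probe set was higher at that threshold (log2 change 0.40, SE 0.17). This Jund probe set read between 5.48 and 11.5, under 2 times the highest control reading on 5 of the 6 arrays. The other probe set of Fos read between 6.52 and 10.5 over the 6 arrays, with a log2 change of 0.17 (SE 0.16). It lay near the negative control on both ages and did not show the difference of the brighter one. The other 2 probe sets of Ier5 read between 6.99 and 9.44 and between 15.5 and 23.0, with log2 changes of 0.14 and 0.05 (limma adjusted p = 0.538 and 0.893). With the mean of all its probe sets the log2 change of Fos was -0.91 (adjusted p = 0.0878) and that of Ier5 was 0.32 (adjusted p = 0.139). The second Fos probe set was under 2 times the highest control reading on 5 of the 6 arrays. The dimmer one of Ier5 was so on all 6, and the other one of Ier5 on 0. These probe sets also enter the averaged values. Whether a low level hid a change was not tested.

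Brighter second probe sets did not always match the brightest one. Those of Jun had log2 changes of -0.10 and -0.15, against -0.38. Those of Klf6 had -0.38 and -0.14, against -0.36. One of Klf2 read at most 154 on day 1 and at least 155 on day 7 (log2 change 0.23, SE 0.12), opposite in sign to the brightest (-0.18), and neither passed. Egr1 and Myc had a single probe set each.

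**Figure D3:**
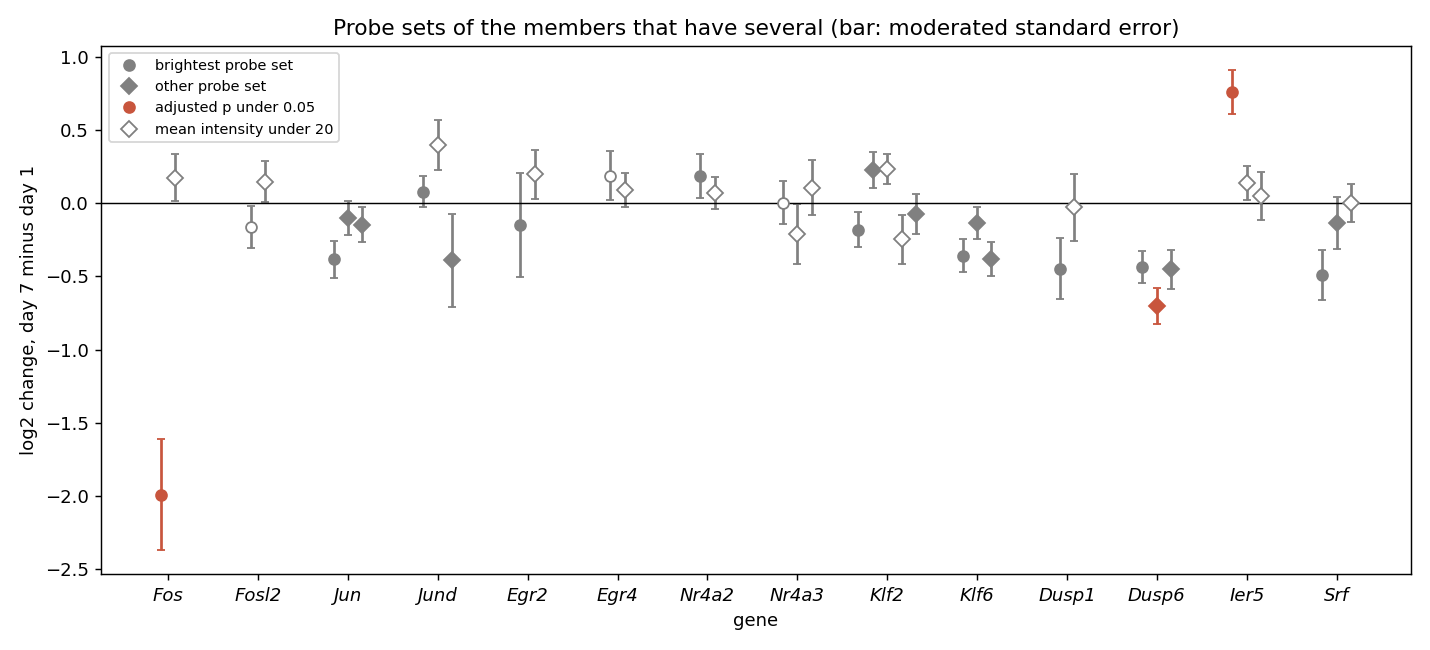
Log2 change and moderated standard error of every probe set of the 14 genes that have several, with the brightest as a circle and the others as diamonds, and open symbols for a mean intensity under 20. The 3 probe sets of Dusp6 lie together below 0, while those of Fos and of Ier5 other than the brightest lie near 0.

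Across the 31 genes the day 1 arrays were not alike. Day 1 replicate 3 was the highest of the 6 arrays for 12 genes, among them Fos, Jun, Junb, Atf3, Dusp1, Ier3, Myc and Srf, and the lowest for 1, Egr3. Day 1 replicates 1 and 2 were the highest for 4 and 5 genes, Egr1 and Dusp6 being highest on replicate 2. The median deviation of the 31 genes from their 6-array means was 0.12, 0.04 and 0.12 on day 1 and -0.09, -0.14 and -0.08 on day 7 (replicates 1, 2 and 3). Without day 1 replicate 3 the log2 change was -1.55 for Fos (limma adjusted p = 0.0545), -1.38 for Egr1 (0.0557) and -0.69 for Myc (0.0696), so that none of the 31 genes was called, while 9 (29.0%) were lower and 2 (6.45%) higher at an unadjusted p under 0.05, where 13.3% of all genes were lower and 7.96% higher. Without day 7 replicate 1 none was called either, with 9 (29.0%) lower and 1 (3.23%) higher at an unadjusted p under 0.05, where 13.1% of all genes were lower and 7.99% higher. The fit without day 1 replicate 1 called Egr1 and Fos, that without day 1 replicate 2 Egr1, Myc, Ier3 and Atf3, that without day 7 replicate 2 Egr1 and Myc, and that without day 7 replicate 3 Egr1 and Ier5. Without day 7 replicate 1 the adjusted p was 0.0927 for Egr1, 0.0933 for Myc, 0.117 for Fos and 0.133 for Ier5.

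**Figure D4:**
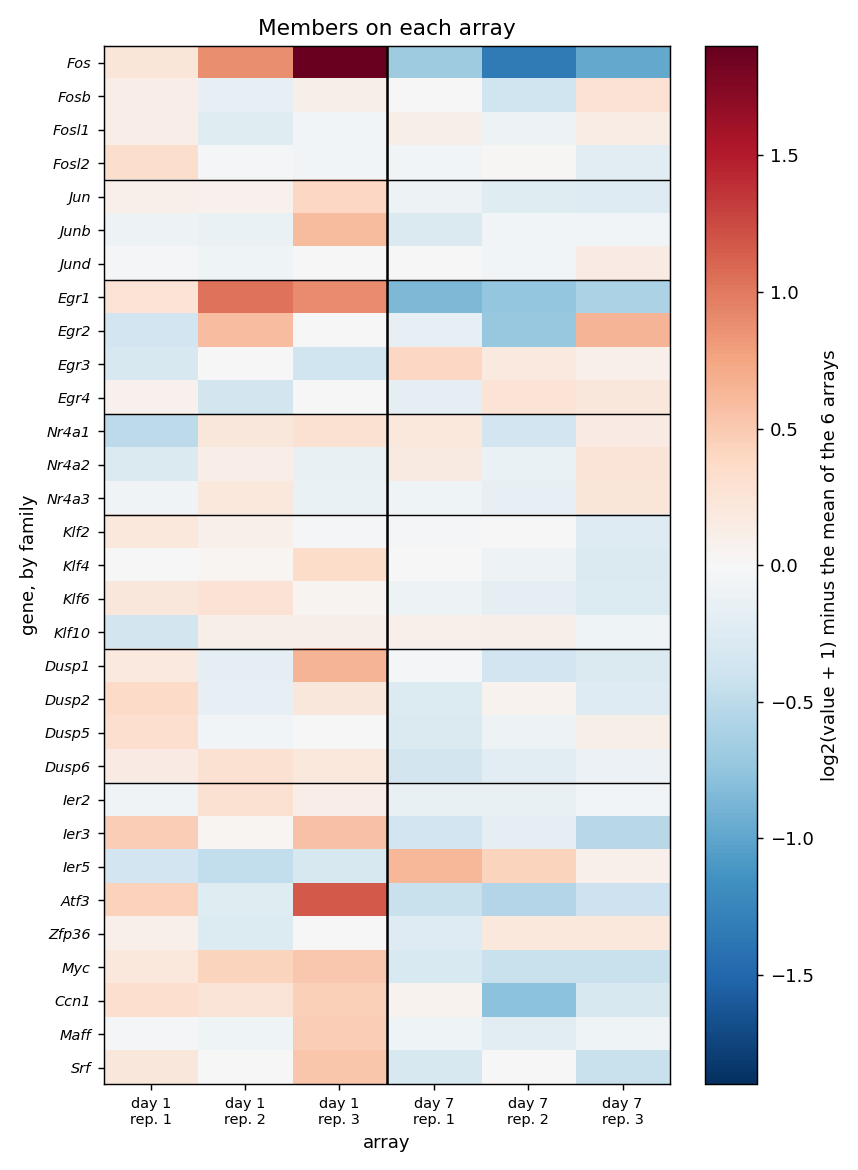
Each of the 31 genes on each of the 6 arrays, as log2(value + 1) minus the mean of the 6 arrays, with families separated by lines and the ages by the thick line. Fos and Atf3 are darkest on day 1 replicate 3, Egr1 on day 1 replicates 2 and 3, and Egr2 and Nr4a1 do not divide by age.

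Of the calls, that of Egr1 was kept in 4 of the 6 fits without 1 array and that of Myc in 2. Fos was still called in 1 of them, without day 1 replicate 1 (log2 change -2.38), and Ier5 in 1, without day 7 replicate 3 (0.90). Of the 2 arrays with raised skin markers, day 1 replicate 1 was the lowest day 1 array for Fos, Egr1 and Myc. Without it the log2 changes of these genes were -2.38, -1.70 and -0.85, and that of Ier5 was 0.77. Day 7 replicate 1 was the highest array for Ier5. Without day 7 replicate 1 the log2 change was -2.15 for Fos, -1.40 for Egr1, -0.80 for Myc and 0.64 for Ier5. With a pseudocount of 16, Egr1 and Myc passed while Fos (adjusted p = 0.0860) and Ier5 (adjusted p = 0.0573) did not. The sign of all 4 changes was the same under all 15 alternatives.

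**Figure D5:**
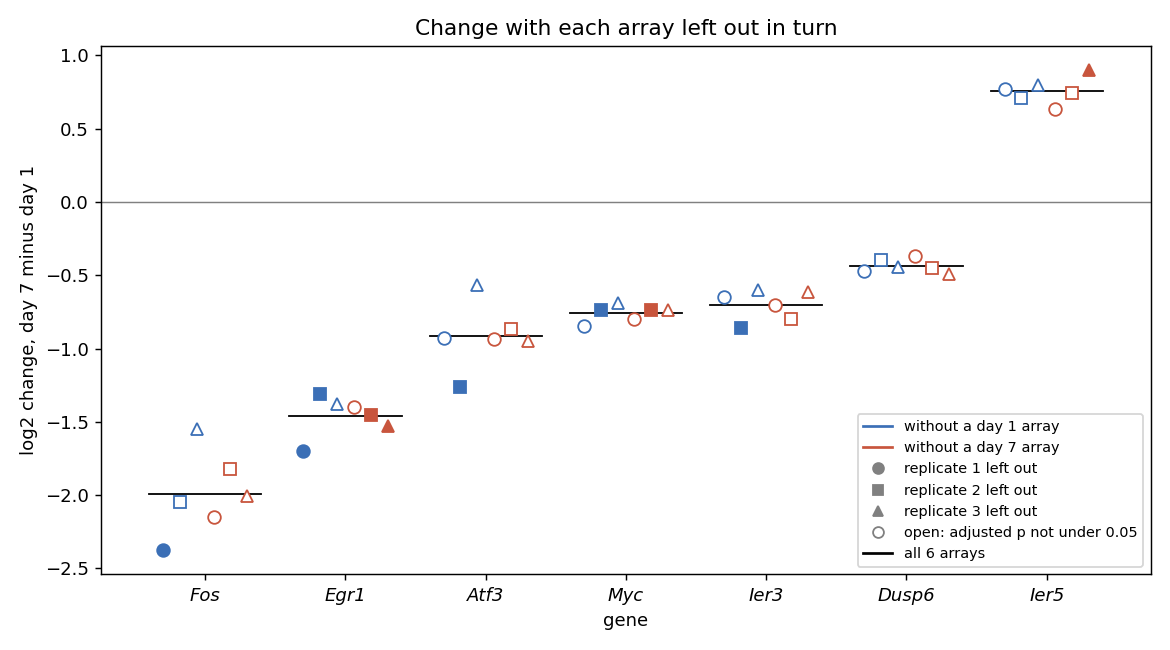
Log2 change of 7 genes with each array left out in turn, with the value on all 6 arrays as a black line and open symbols where the limma adjusted p was not under 0.05. The changes keep their sign in every fit, and Egr1 has 4 filled symbols of 6, Myc 2, and Fos, Ier5, Atf3 and Ier3 1 each.

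The pathway around these genes was read from lists written from textbook knowledge, and these lists are described by counts only. Of all genes, 1.93% were called higher and 3.15% lower. At an unadjusted p under 0.05 in limma, 10.6% of all genes were higher and 17.0% lower. Of 15 measured kinases of the ERK, JNK, p38 and ERK5 cascades, none passed in limma, with 1 higher and 1 lower at an unadjusted p under 0.05 and a median log2 change of -0.05. Of 13 growth factor receptors that feed ERK, Erbb2, the co-receptor of the EGF receptor family, fell (log2 change -1.14, SE 0.11; limma adjusted p = 0.0111) and none rose, with 2 higher and 3 lower at an unadjusted p under 0.05. Of 14 further feedback inhibitors of ERK signalling, Lrig1, which restrains receptors of the EGF receptor family, fell (log2 change -0.94, SE 0.19; adjusted p = 0.0439) and none rose. The medians of these last lists were -0.01 and 0.02, close to that of all genes.

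Among 20 other AP-1 partners and related leucine zipper factors, Atf5 (log2 change 1.12, SE 0.14; limma adjusted p = 0.0141) and Creb3l1, a membrane-bound factor that drives collagen I transcription in bone (0.95, SE 0.17; adjusted p = 0.0321), rose and none fell. For Cebpb, a factor of acute responses, the value was -0.82 (adjusted p = 0.0959). Of 38 other genes induced early by serum or stress, Sgk1, a kinase induced by serum and glucocorticoids, rose (0.88; adjusted p = 0.0223) and the scaffold gene Homer1 fell (log2 change -1.23; adjusted p = 0.0354), with a list median of -0.13. Of 11 other KLF and SP factors, Klf9, a target of thyroid hormone and glucocorticoids, rose (0.73; adjusted p = 0.0227) and none fell.

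The SRF cofactors and targets were read in the same way. None of 8 cofactors passed in limma, with 2 lower at an unadjusted p under 0.05. The cofactor Fhl2 had a log2 change of -0.64 and Mrtfa, the actin-regulated coactivator, one of -0.40 (adjusted p = 0.114 and 0.155). Of 17 cytoskeletal targets, the focal adhesion protein gene Zyx fell (log2 change -0.72, SE 0.12; adjusted p = 0.0293) and none rose. The list median was -0.22. All day 7 arrays lay below all day 1 arrays for 8 of the 17 genes, and for 19.1% of all genes. Of 15 textbook AP-1 targets of matrix turnover, Mmp3, a matrix protease, rose and none fell. Mmp3 lay near the negative control on day 1 with a mean of 4.88, against 87.8 on day 7 (adjusted p = 0.0141), so no fold is given. The median of that list was -0.01.

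Genes of heat shock, which handling of tissue can raise, were read as well. Of 15 measured, Hspa5, Hspd1 and Hsp90ab1, chaperones of the endoplasmic reticulum, the mitochondrion and the cytosol, fell (log2 changes -0.72, -0.53 and -0.57; limma adjusted p = 0.0371, 0.0469 and 0.0477) and none rose, with 10 lower and 0 higher at an unadjusted p under 0.05. Over all genes, 17.0% were lower and 10.6% higher at that unadjusted threshold. The list median, as a log2 deviation from the 6-array mean, was 0.27, 0.11 and 0.35 on day 1 and -0.30, -0.04 and -0.35 on day 7 (replicates 1, 2 and 3). Its part in the changes of the immediate-early genes was not tested.

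Markers of other cell types differed between the ages on the same arrays. For comparison, 1.93% of all genes were called higher and 3.15% lower. At an unadjusted p under 0.05 in limma, 10.6% were higher and 17.0% lower. Of 18 skeletal muscle genes 5 fell and 1 rose, and the list median was 0.37, 0.14 and 0.49 on day 1 and -0.38, -0.01 and -0.69 on day 7. Of 10 adipocyte genes 8 rose and 0 fell. The 3 day 1 medians of that list ran from -1.16 to -0.80, and those of day 7 from 0.48 to 1.24.

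Of 5 measured neutrophil genes S100a9 fell (log2 change -2.57; limma adjusted p = 0.0365) and none rose. S100a9 read 38.9, 60.8 and 164 on day 1 and 7.48, 16.4 and 12.3 on day 7, with its highest value on day 1 replicate 3, as for Fos. S100a8, whose protein pairs with that of S100a9, read 15.6, 22.9 and 49.8 on day 1 and 13.2, 14.5 and 13.8 on day 7, also highest on day 1 replicate 3 (log2 change -0.88, SE 0.35; adjusted p = 0.197). Camp and Cxcr2, of the same list, read at most 7.30 on all arrays. Lcn2, also of that list, was lowest on day 1 replicate 3. It read 99.9, 77.4 and 62.4 on day 1 and 77.0, 73.3 and 70.3 on day 7 (log2 change -0.09, SE 0.17). Of 12 macrophage genes Adgre1 rose and none fell, while 9 of the 12 had a log2 change below 0 and, at an unadjusted p under 0.05, 5 were lower and 1 higher (list median -0.30). Cd163, a scavenger receptor of macrophages, had a log2 change of -1.01 (limma adjusted p = 0.0988). Of 10 endothelial genes Egfl7 rose and none fell, with 3 higher and 0 lower at an unadjusted p under 0.05 and a median of 0.18. Of 10 cartilage genes 2 rose, of 8 nerve genes 1 rose and 1 fell, and none of 10 pericyte, 6 erythroid or 7 epidermal genes passed. At an unadjusted p under 0.05, 9 of the 10 cartilage genes were higher and 0 lower (list median 1.08). For nerve, 5 of the 8 genes were higher and 1 lower at that threshold (list median 1.05). All day 7 arrays lay above all day 1 arrays for 7 cartilage and 3 nerve genes, and below them for 0 and 1. At the same unadjusted threshold, 4 pericyte genes were higher and 4 lower, and 0 erythroid or epidermal genes. The tendon list of 10 measured genes, which holds Egr1 and Egr2, had 2 that rose and 1 that fell, Egr1 itself, with a median of 0.47. The part of cell composition in the changes of Fos, Egr1, Myc and Ier5 was not tested.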

How the data were processed

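Labelled RNA of 6 pools of Achilles tendon was hybridised to 1-colour arrays, 3 pools per age. The deposited values are linear intensities, 1 for each probe set on each array. MAS5 and RMA are named in the submitters' processing notes, and which of them made the deposited intensities is not given in the sources used here. Of 31099 probe sets 57 controls were left out. Platform annotation gave 20826 of the other 31042 a single symbol, 436 several and 9780 none.

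Values were taken as log2(value + 1) without further scaling, and day 7 was compared with day 1 with limma 3.58.1 (lmFit, then eBayes; R 4.3.3). Tests were two-sided, and p-values were adjusted by Benjamini-Hochberg across all 31042 probe sets. The fit was tested on simulated data for day 7 against day 1 with 14217 genes, where it recovered 91% of genes changed 2-fold and 98% of those changed 4-fold. That simulation had independent noise and gives no power for the tendon samples. The alternatives changed the normalization (quantile, median centring), the pseudocount (16), the probe sets (brighter ones only, or averaged per gene), the variance model (trended and robust, array weights, replicate block) and the arrays used (each left out, or both numbered 2).

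All measured members were named, with up to 4 genes of each pathway list and 2 of each cell type list by adjusted p. Further markers (Scx, Tnmd, Acta1, Krt5, Camp, Cxcr2 and Lcn2) were named after their values were seen. The members and lists were chosen with earlier results of these data known.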

Additional observations from a re-analysis of the deposited data

How the results depend on the processing

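The counts of genes called higher and lower (274 and 448) kept within 1.5 times of these values under quantile normalization (352 and 320, a larger share of higher calls), median centring, brighter probe sets, the mean of probe sets, an intensity trend and without both arrays numbered 2. They were 182 higher with a pseudocount of 16, 538 higher and 897 lower with array weights, and 4 to 271 higher and 0 to 382 lower without 1 array. The 0 lower calls came without day 7 replicate 1, where 1869 genes were lower at an unadjusted p under 0.05 in limma. With brighter probe sets only 9607 genes were tested, against 14217 in the main fit. The 334 higher and 641 lower calls there are larger shares of the genes tested. Titles number the arrays of each age. Deviations of same-numbered arrays had correlations of 0.05, -0.25 and -0.14, against -0.11 to 0.25 for differently numbered arrays. So few correlations cannot decide whether same-numbered arrays shared more than a number. With the replicate block 25 genes were higher and 8 lower, and 0 of the 31 immediate-early genes were higher and 0 lower, with 2 (6.45%) and 10 (32.3%) at an unadjusted p under 0.05, against 9.05% and 13.7% of all genes. Among the 31, the 1 higher call became 0 with a pseudocount of 16, with the mean of probe sets and without both arrays numbered 2, and 0 to 1 without 1 array; the 3 lower calls became 5 with array weights and 0 to 4 without 1 array. The median log2 change of the 31 was -0.18 under quantile normalization and with a pseudocount of 16, -0.28 without both arrays numbered 2, and -0.32 to -0.21 without 1 array. The sign was the same in all alternatives for 24 of the 31 genes. The other 7 did not pass under any alternative. Their reversed log2 changes were 0.021 for Fosb, 0.43 for Egr2, -0.027 for Egr4, 0.29 for Nr4a1 and -0.069 for Zfp36 without both arrays numbered 2, 0.023 for Egr2 and -0.035 for Nr4a3 with the mean of probe sets, 0.063 for Nr4a1 and -0.055 for Nr4a3 under quantile normalization, -0.016 for Nr4a3 with median centring, and 0.18 for Nr4a1 and -0.013 for Nr4a3 with array weights. Without 1 array they ranged from -0.22 to 0.11 for Fosb, from -0.51 to 0.17 for Egr2, from -0.25 to 0.18 for Nr4a1, from -0.12 to 0.10 for Nr4a3 and from -0.075 to 0.16 for Klf10. The causes were not tested.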
